A study of Homo sapiens with 6 samples.

Results

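The cGAS-STING pathway is the route by which DNA in the cytosol switches on type I interferon. Its core was described here through 10 genes that run from the DNA sensor to the transcription factors: CGAS, BANF1, TRIM56, ENPP1, STING1, TRAF3, TBK1, IKBKE, IRF3 and IRF7. They were taken by gene symbol from the 20020 genes of the count table, and all 10 were found. RNA-seq was performed on HCT116 cells, a human colorectal carcinoma line, in 6 libraries, and every library came from irradiated cells. The 3 CAD-KO2+IR libraries came from cells carrying a lentiCRISPRv2 guide against CAD, the caspase-activated DNase, whose gene is DFFB. The 3 sgVec+IR libraries came from cells with the vector control. The cells had received 8 Gy and were taken 24 h later. A single knockout line was sequenced, unirradiated cells were not analysed here, and no source says that the libraries of a group came from separate cultures. P-values therefore measure the spread between these libraries, which may be technical.

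In this pathway cGAS, the product of CGAS, binds double-stranded DNA and makes the cyclic dinucleotide cGAMP. cGAMP binds STING on the endoplasmic reticulum, STING moves to the Golgi and recruits the kinase TBK1 or its relative IKKε (encoded by IKBKE), and the kinase phosphorylates IRF3, which enters the nucleus and turns on the gene for interferon β. After irradiation, DNA in micronuclei or leaking from damaged nuclei and mitochondria is a known source of the ligand. Much of this signalling is set by protein modification and movement, which counts of mRNA do not read.

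mRNA of 9 of the 10 members was readily counted, from BANF1 as the most abundant to IKBKE, while the sensor CGAS was close to the detection limit in 5 of the 6 libraries. No difference between CAD-KO2+IR and sgVec+IR in these 9 genes passed the test across all genes. STING1 had the largest fold change of the members, at 13.8 ± 2.75 CPM (SD, n = 3) in the knockout line and 19.5 ± 5.47 CPM (SD, n = 3) in the control, where CPM is the count as a rate of the library size after TMM scaling. Its groups overlapped through 1 control library, without which the groups of 45.5% of all genes did not overlap. Of the 9 members with enough counts to be tested, 4 were higher and 5 lower in the knockout line (48.1% of all 12925 genes tested were higher), with log2 fold changes from −0.51 to 0.12 and a median of −0.02 against −0.01 over all genes tested. Groups were compared by the quasi-likelihood test of edgeR, adjusted after Benjamini and Hochberg over all genes tested, and a gene was called when its adjusted p was under 0.05 and its fold change at least 1.5. By this rule 0 of the 9 members were called (0.0309% of all genes tested), and 0 had an unadjusted p under 0.05 (2.85% of all genes). DESeq2 also called 0 of the 9 (0.364% of all genes) and gave 0 with an unadjusted p under 0.05 (3.21% of all genes). For 0 of the 9 members did the 3 libraries of one group lie wholly above or below those of the other (10.2% of all genes).

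The libraries were not equally alike, and this bears on every member. Totals ran from 14032994 to 19574144 counts on genes. The sgVec+IR replicate 3 library had 7561 genes without a count, against 4577 to 5232 in the others, and its Pearson correlation of log2 CPM with replicates 1 and 2 across genes was 0.890 and 0.886, whereas that between replicates 1 and 2 was 0.993. CAD-KO2+IR replicate 2 stood apart less, at 0.969 and 0.975. In both libraries the deviation from the other libraries of the group followed the GC content of the transcript, with r = −0.61 and −0.76 across 12913 genes, which are not independent replicates. Counts of DFFB, the targeted gene, were 185, 192 and 217 in the knockout libraries and 357, 335 and 297 in the controls (log2 fold change −1.02, SE 0.193, adjusted p = 0.550 in edgeR, 0.000458 in DESeq2). Of 7 epithelial markers 6 had at least 10 counts in every library, with summed levels of 2767 to 3939 CPM in the knockout libraries and 2078 to 4032 CPM in the controls, and only VIL1 was near 0. Among them CDH1, the gene for E-cadherin, was lower in each knockout library, at 66.3, 69.8 and 63.9 CPM against 97.6, 99.7 and 93.9 CPM (log2 fold change −0.54, SE 0.146, adjusted p = 1.0 in edgeR, 0.00816 in DESeq2). KRT18 was higher without overlap (log2 fold change 0.31, SE 0.206, adjusted p = 1.0 in edgeR), and at 0.12 without sgVec+IR replicate 3. Groups did not overlap for 10.2% of all genes. Of 5 immune markers 0 reached 10 counts in every library, with sums of 0.211 to 1.03 CPM and 0 to 1.16 CPM. Of 4 fibroblast markers COL1A1 alone reached it, with sums of 25.9 to 39.8 CPM and 10.9 to 48.9 CPM. Of 3 endothelial markers VWF alone did, and their sums, 0.685 to 1.54 CPM in the knockout and 2.57 to 6.07 CPM in the controls, did not overlap. VWF held most of each sum, at 0.976, 0.685 and 1.42 CPM against 2.45, 3.01 and 5.15 CPM. PECAM1 overlapped, with 4, 0 and 2 counts against 1, 11 and 0. CDH5 had 0 counts in each knockout library and 1, 1 and 13 in the controls. Over all genes tested, 10.2% had groups that did not overlap. The part of these marker differences in any result was not tested.

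To set the steps of the pathway side by side, counts were divided by the length of each gene's merged exons and scaled to the same sum in every library (TPM), since levels of different genes can be compared only per length. BANF1 was the most abundant member at 256 ± 80.6 TPM (SD, n = 6) and stood above 96.6% of the genes tested. TBK1 followed at 59.3 ± 19.0 TPM, TRAF3 at 55.9 ± 6.59 TPM and IRF3 at 34.6 ± 10.5 TPM. These 4 genes were the most abundant members, each above at least 63.1% of the genes tested. TRIM56 was at 16.4 ± 4.23 TPM, STING1 at 15.9 ± 4.83 TPM and ENPP1 at 9.88 ± 4.21 TPM. IRF7 was at 7.11 ± 3.34 TPM, IKBKE at 5.796 ± 1.498 TPM and CGAS at 0.450 ± 0.899 TPM. Only 1.43% of the genes tested had a mean TPM below that of CGAS, whereas 41.5% lay below STING1. CGAS was not itself among the genes tested, which leave out genes with low counts, so its low place was largely set in advance. The mean of CGAS was carried by sgVec+IR replicate 3 and was 0.0851 TPM over the other 5 libraries.

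Neighbours in this order were mostly not separated. Only 3 of the 9 neighbouring pairs had ranges of TPM over the 6 libraries that did not overlap, namely BANF1 over TBK1, TRAF3 over IRF3, and IKBKE over CGAS. The IRF3 and TRIM56 ranges overlapped, but IRF3 was higher within each of the 6 libraries. TBK1 exceeded TRAF3 in only 2 libraries, CAD-KO2+IR replicate 2 and sgVec+IR replicate 3. TRIM56 exceeded STING1 in 3 libraries, and ENPP1 exceeded IRF7 in 3. In the other 5 libraries alone, that is without sgVec+IR replicate 3, TRAF3 stood above TBK1, and IRF7 at 8.22 TPM was level with ENPP1 at 8.21 TPM.

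**Figure D1:**
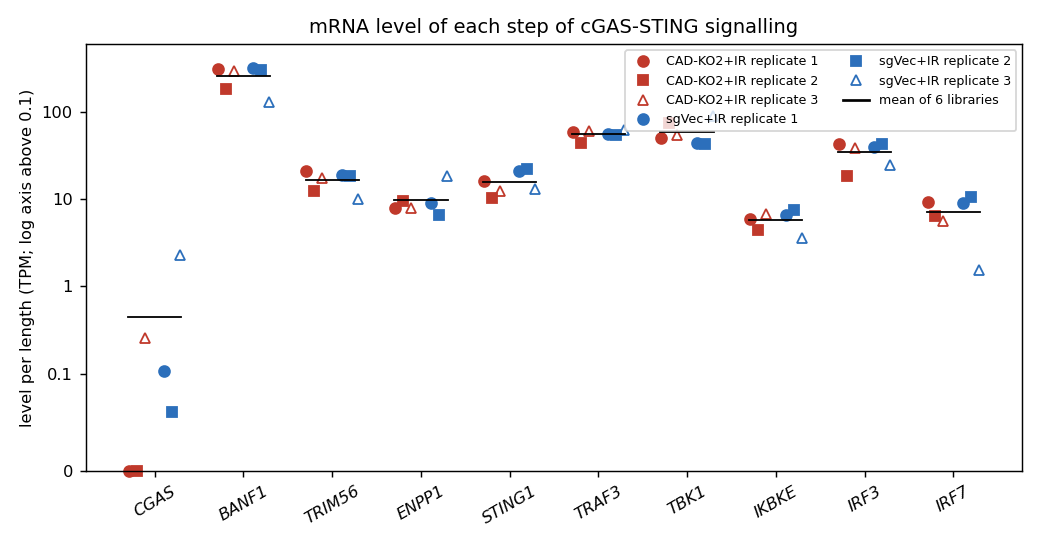
TPM of the 10 genes in each library, on a log axis above 0.1 TPM and a linear axis below it, with red symbols for CAD-KO2+IR, blue symbols for sgVec+IR and a black line for the mean of the 6 libraries. BANF1 lies between 129.6 and 320.4 TPM in all libraries, while CGAS lies at 0 in 2 libraries and reaches 2.28 TPM only in sgVec+IR replicate 3.

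The paralogous pairs at the kinase and transcription factor steps were unequal in every library. TBK1, the kinase with the broad expression, exceeded IKBKE by 8.44, 16.5 and 8.03 times in TPM in CAD-KO2+IR replicates 1 to 3 and by 6.70, 5.76 and 25.4 times in sgVec+IR replicates 1 to 3. The highest ratios came from the same 2 libraries that stood apart. IRF3, which is present before stimulation, exceeded IRF7, which interferon itself induces in many cells, by 4.60, 2.87 and 6.85 times in CAD-KO2+IR and by 4.42, 4.01 and 16.02 times in sgVec+IR. STING1 was less abundant than TBK1 in TPM throughout, with ratios of 0.327, 0.141 and 0.228 in CAD-KO2+IR and of 0.481, 0.515 and 0.145 in sgVec+IR. This ratio was lower in each CAD-KO2+IR library than in sgVec+IR replicates 1 and 2, and sgVec+IR replicate 3 fell within the CAD-KO2+IR values. The lowest ratio of each group came from the library that stood apart. STING1 has 56.8% GC and TBK1 39.3%, and the part of GC content in this ratio was not tested.

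The kinase pair also differed in the sequence at the start of the gene, which is shown because TBK1 and IKBKE act at the same step and were the more unequal of the 2 paralogous pairs. RefSeq promoters on GRCh38.p14, from 250 bases before to 50 after the start, were matched for 6 of the 10 members; CGAS, STING1, IRF3 and IRF7 had no entry. The TBK1 window (chr12:64451870-64452169, forward strand) held 35 CG dinucleotides, and 14.1% of 35116 promoters held as many or more. The IKBKE window (chr1:206470226-206470525, forward strand) held 5, and 33.7% held as many or fewer. CG dinucleotides, which read the same on both strands, are in capitals. These counts describe the sequence only, since the libraries hold no measurement of promoter activity.
TBK1: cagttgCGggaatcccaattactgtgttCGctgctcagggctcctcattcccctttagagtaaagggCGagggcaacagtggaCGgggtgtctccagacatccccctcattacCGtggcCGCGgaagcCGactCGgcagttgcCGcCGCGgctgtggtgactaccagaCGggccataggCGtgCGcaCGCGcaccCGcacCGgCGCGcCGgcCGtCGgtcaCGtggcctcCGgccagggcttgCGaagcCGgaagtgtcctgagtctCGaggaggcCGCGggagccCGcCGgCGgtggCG
IKBKE: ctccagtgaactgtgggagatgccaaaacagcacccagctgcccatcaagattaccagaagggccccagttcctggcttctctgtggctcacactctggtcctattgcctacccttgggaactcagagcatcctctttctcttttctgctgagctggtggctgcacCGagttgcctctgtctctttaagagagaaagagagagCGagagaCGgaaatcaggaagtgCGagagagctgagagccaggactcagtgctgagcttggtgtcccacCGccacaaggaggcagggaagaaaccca
Among the other matched windows, TRAF3 had 61 CG dinucleotides, ENPP1 37, BANF1 23 and TRIM56 13, and this order was not that of their TPM levels, in which BANF1 was first and ENPP1 last.

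CGAS (ENSG00000164430.17; GRCh38 chromosome 6, 73413515 to 73452276, reverse strand), the sensor, did not pass the filter on low counts and was left out of the main test. It had 0, 0 and 5 counts in CAD-KO2+IR and 2, 1 and 35 counts in sgVec+IR. The 35 counts in sgVec+IR replicate 3 made up most of the control group's 38. In CPM without TMM, CAD-KO2+IR had 0.0900 (95% exact Poisson interval 0.0292 to 0.210), sgVec+IR replicates 1 and 2 together 0.0976 (0.0201 to 0.285), and sgVec+IR replicate 3 alone 2.49 (1.74 to 3.47). The first pair of intervals overlapped almost wholly, with a ratio of CAD-KO2+IR to sgVec+IR replicates 1 and 2 of 0.922 (95% interval 0.179 to 5.94), which spans a large difference either way. The intervals cover counting error only. In a fit without the filter the log2 fold change of CGAS was −3.11 (adjusted p = 1.0, edgeR), a value that rests on the 35 counts of that library. Of the exon bases of CGAS, 4.33% overlap DDX43 on the other strand.

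BANF1 (ENSG00000175334.8; chromosome 11, 66002079 to 66004149, forward strand) encodes the DNA-bridging protein BAF, which competes with cGAS for nuclear DNA. Its CPM was 138.8, 86.0 and 128.7 in CAD-KO2+IR and 143.9, 134.2 and 55.6 in sgVec+IR. The lowest library of each group was the one that stood apart, and the groups overlapped (log2 fold change 0.08, SE 0.373, adjusted p = 1.0 in edgeR). Without sgVec+IR replicate 3 the log2 fold change was −0.24. TRIM56 (ENSG00000169871.13; chromosome 7, 101085439 to 101097967, forward strand), a ubiquitin ligase that acts on cGAS and STING, had 63.4, 39.8 and 52.4 CPM in CAD-KO2+IR against 57.5, 55.9 and 29.6 CPM in sgVec+IR. It showed the same pattern of low libraries as BANF1 (log2 fold change 0.12, SE 0.306, adjusted p = 1.0 in edgeR; −0.13 without sgVec+IR replicate 3).

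ENPP1 (ENSG00000197594.14; chromosome 6, 131808016 to 131895155, forward strand), the ectoenzyme that hydrolyses extracellular cGAMP, ran the other way. Its CPM was 21.5, 27.6 and 21.1 in CAD-KO2+IR and 24.5, 17.7 and 47.3 in sgVec+IR. The highest value was again in sgVec+IR replicate 3, and the log2 fold change of −0.35 (SE 0.370, adjusted p = 1.0 in edgeR) became 0.15 without that library. The direction for ENPP1 was therefore decided by 1 control library.

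STING1 (ENSG00000184584.14; chromosome 5, 139475534 to 139482935, reverse strand) encodes STING, the receptor of cGAMP and the protein that the study relates to CAD. Its CPM was 16.9, 11.6 and 12.8 in CAD-KO2+IR and 22.2, 23.1 and 13.2 in sgVec+IR. Each CAD-KO2+IR library was below sgVec+IR replicates 1 and 2, and only sgVec+IR replicate 3, at the level of the CAD-KO2+IR libraries, made the groups overlap. Such a separation was common, since without sgVec+IR replicate 3 the groups of 45.5% of all genes did not overlap. The log2 fold change was −0.51 (SE 0.284, unadjusted p = 0.118, adjusted p = 1.0 in edgeR), and it was negative in all 17 alternatives, from −0.73 to −0.36, with an adjusted p from 0.000621 to 1.0. Once sgVec+IR replicate 3 was left out it was −0.72 (unadjusted p = 0.00709, adjusted p = 0.340, edgeR), in a fit where 11.9% of all genes had an unadjusted p under 0.05 and 0.167% were called. With an offset for GC content it was −0.50 (SE 0.146, unadjusted p = 0.00969, adjusted p = 0.331, edgeR), in a fit where 9.92% of genes had an unadjusted p under 0.05 and 0.325% were called.

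STING1 was called in 2 of the alternatives, both of which give sgVec+IR replicate 3 little or no weight. With sample weights in limma-voom its log2 fold change was −0.73 (adjusted p = 0.00108, limma), where 5.15% of all genes were called and the weights of sgVec+IR replicate 3 and CAD-KO2+IR replicate 2 were 0.0404 and 0.154. In a fit without these 2 libraries, chosen after seeing the data, it was −0.60 (SE 0.129, adjusted p = 0.000621, edgeR), where 3.37% of all genes were called. STING1 was the only one of the 9 tested members called there. None of its exon bases overlaps another gene in the annotation. In bulk libraries, fewer cells expressing a gene and less of its RNA in each cell cannot be told apart.

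**Figure D2:**
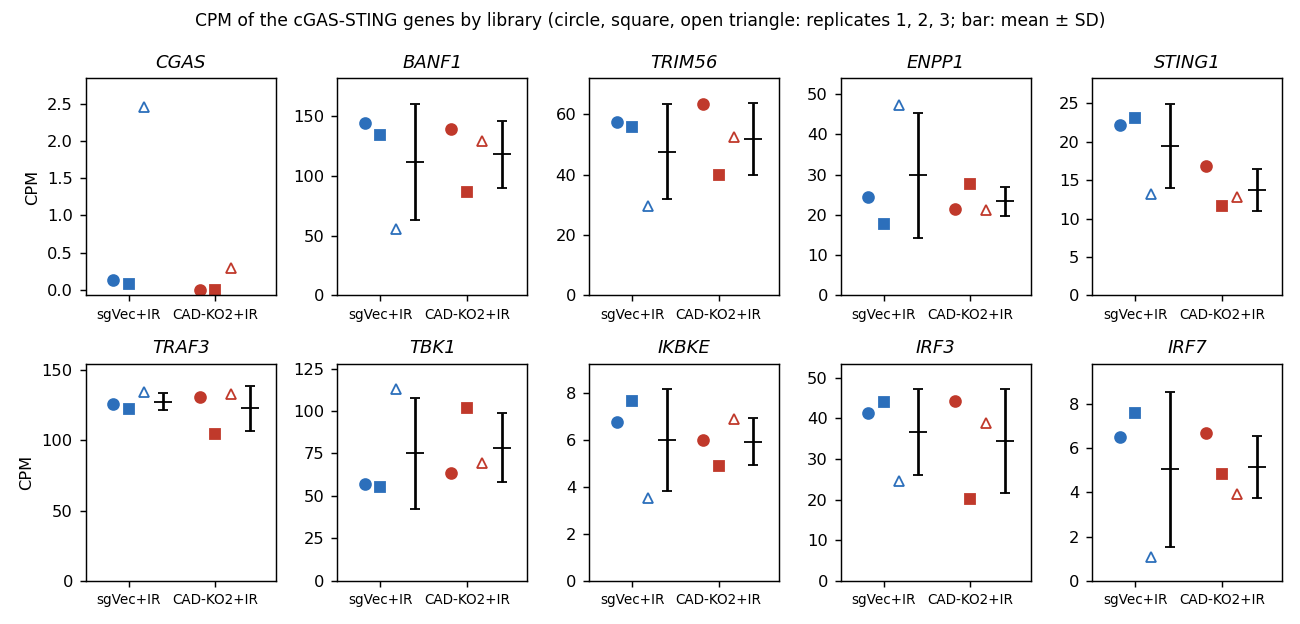
CPM of each of the 10 genes by library, 1 panel a gene, with the mean ± SD of the 3 libraries of a group (no bar for CGAS, which had too few counts for the main test). In the STING1 panel the CAD-KO2+IR libraries lie between 11.6 and 16.9 CPM, below sgVec+IR replicates 1 and 2 at 22.2 and 23.1 CPM, with sgVec+IR replicate 3 at 13.2 CPM. Without sgVec+IR replicate 3 the groups of 45.5% of all genes did not overlap.

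TRAF3 (ENSG00000131323.17; chromosome 14, 102777476 to 102911500, forward strand), an adaptor and ubiquitin ligase that links innate receptors to TBK1, was the steadiest member. Its CPM was 130.8, 104.3 and 132.9 in CAD-KO2+IR and 125.7, 122.1 and 134.1 in sgVec+IR. The libraries of both groups lay in one narrow range, and the log2 fold change of −0.05 had the smallest standard error of the members (0.162, adjusted p = 1.0 in edgeR). It ran from −0.13 to 0.09 over the 17 alternatives.

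TBK1 (ENSG00000183735.11; chromosome 12, 64451880 to 64502108, forward strand), the kinase that phosphorylates STING and IRF3, had 63.8, 101.6 and 69.5 CPM in CAD-KO2+IR against 57.1, 55.4 and 112.7 CPM in sgVec+IR. One library was high in each group, again the one that stood apart. The log2 fold change was 0.06 (SE 0.335, adjusted p = 1.0 in edgeR), and without sgVec+IR replicate 3 it was 0.48 (unadjusted p = 0.0593, adjusted p = 0.423, edgeR). Each CAD-KO2+IR library was above sgVec+IR replicates 1 and 2, the opposite of STING1 (45.5% of all genes did not overlap without sgVec+IR replicate 3). With sample weights the adjusted p of TBK1 was 0.0244 (log2 fold change 0.28, limma), a fold change under 1.5, in a fit where 22.3% of all genes had an adjusted p under 0.05. In the annotation 14.7% of its exon bases overlap an antisense gene, and how the counting treated strand is not given in the sources used here. IKBKE (ENSG00000263528.8; chromosome 1, 206470476 to 206496889, forward strand), the related kinase, had 6.02, 4.90 and 6.89 CPM in CAD-KO2+IR against 6.79, 7.67 and 3.53 CPM in sgVec+IR. Its groups overlapped (log2 fold change −0.02, SE 0.337, adjusted p = 1.0 in edgeR).

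IRF3 (ENSG00000126456.16; chromosome 19, 49659569 to 49665875, reverse strand), the transcription factor that TBK1 activates, had 44.3, 20.1 and 38.8 CPM in CAD-KO2+IR against 41.3, 44.0 and 24.5 CPM in sgVec+IR. The low library of each group was the one that stood apart, and the other 4 lay between 38.8 and 44.3 CPM. The log2 fold change was −0.09 (SE 0.355, adjusted p = 1.0 in edgeR). Of its exon bases 19.3% overlap BCL2L12 on the other strand. IRF7 (ENSG00000185507.21; chromosome 11, 612553 to 615999, reverse strand), which amplifies the interferon response, had 6.67, 4.85 and 3.93 CPM in CAD-KO2+IR against 6.48, 7.60 and 1.06 CPM in sgVec+IR. Its lowest value rests on 15 counts, and it had the largest standard error of the members (log2 fold change 0.02, SE 0.572, adjusted p = 1.0 in edgeR). Without sgVec+IR replicate 3 the log2 fold change was −0.44 (adjusted p = 0.460, edgeR). With sample weights IRF7 was called (−0.64, adjusted p = 0.0394, limma), in a fit where 5.15% of all genes were called. It was not called without CAD-KO2+IR replicate 2 and sgVec+IR replicate 3 (−0.39, adjusted p = 0.223, edgeR).

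Across the core, then, the sign of several fold changes depended on which libraries were kept. Without CAD-KO2+IR replicate 1, which did not stand apart, BANF1 (−0.04), TRIM56 (−0.04) and IRF7 (−0.20) turned negative, as they did without sgVec+IR replicate 3. When sgVec+IR replicate 3 was left out, 2 of the 9 members had a positive log2 fold change in place of 4 (48.7% of all genes were higher in that fit). The groups of 2 members, STING1 and TBK1, no longer overlapped, where 45.5% of all genes did not overlap either. In sgVec+IR replicate 3 itself, 5 of the 9 members differed at least 2-fold from the mean of replicates 1 and 2 (35.8% of all genes). In CAD-KO2+IR replicate 2, IRF3 alone of the 9 differed at least 2-fold from the mean of replicates 1 and 3 (6.43% of all genes).

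**Figure D3:**
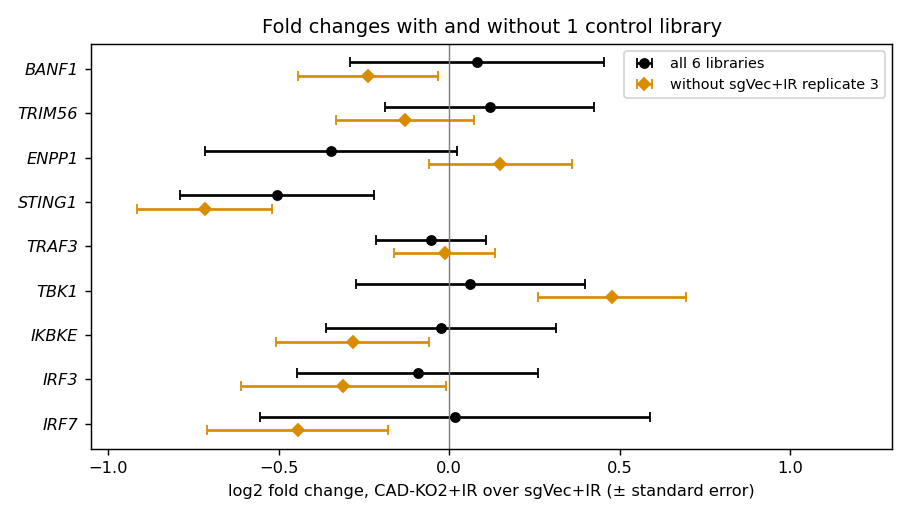
Log2 fold change of CAD-KO2+IR over sgVec+IR for the 9 members tested, with all 6 libraries (black) and without sgVec+IR replicate 3 (orange), and bars of ± 1 standard error from edgeR. STING1 stays below 0 in both (−0.51 and −0.72), while BANF1, TRIM56, ENPP1 and IRF7 change sign.

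The deviations of the members in these libraries followed their GC content for the most part. In sgVec+IR replicate 3, TBK1 with 39.3% GC and ENPP1 with 41.8% GC were above the other 2 controls by 1.0 and 1.18 on the log2 scale. IRF7, with 66.8% GC, was the farthest below at −2.60, and BANF1 with 55.2% GC was at −1.32. TRAF3, with 54.5% GC, was the exception at 0.11. Over all genes the median was 0.62 for the 4762 with under 45% GC and −1.20 for the 4013 with over 55% GC. STING1, with 56.8% GC, was at −0.77 in sgVec+IR replicate 3 and at −0.34 in CAD-KO2+IR replicate 2, and IRF3, with 59.0% GC, was at −0.80 and −1.04. Over the 9 members r with GC content was −0.92 in sgVec+IR replicate 3 and −0.67 in CAD-KO2+IR replicate 2, given as a description, since the members share their library. The part of GC content in the members' fold changes was tested only by the GC offset, alone (given above for STING1) and together with a block for replicate number. With the offset alone the log2 fold changes of the 9 members ran from −0.50 to 0.19, and 0 were called (0.325% of all genes). With the offset and the block they ran from −0.50 to 0.32, and 0 were called (4 of all 12925 genes).

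**Figure D4:**
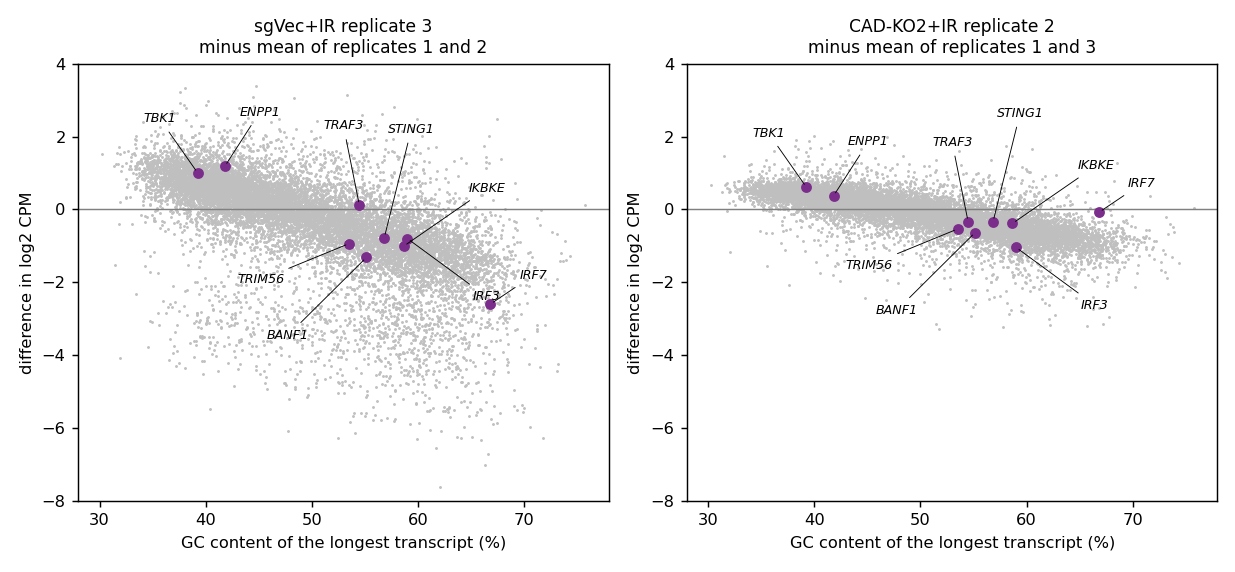
Difference in log2 CPM between the library that stood apart and the mean of the other 2 libraries of its group, against the GC content of the longest transcript, for all genes tested (grey) and the members (purple). TBK1 and ENPP1 lie above 0 at the low end of GC content in both panels, and IRF7 lies at −2.60 in the left panel and at −0.08 in the right panel.

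A wider list of 58 genes that make, limit, carry or regulate the signal was read in the same fit. Of the 53 with enough counts, 30 were higher and 23 lower in the knockout line, and the median log2 fold change was 0.03. Once sgVec+IR replicate 3 was left out, 24 were higher and 29 lower, with a median of −0.04. Without that library and CAD-KO2+IR replicate 2 (chosen after seeing the data), 30 were higher and 23 lower, with a median of 0.02. In the fit of all 6 libraries, 0 of the 53 were called in edgeR (0.0309% of all genes) and 0 in DESeq2 (0.364% of all genes). Groups did not overlap for 4 of the 53, against 10.2% of all genes. In edgeR 1 had an unadjusted p under 0.05, against 2.85% of all genes, so neither of these counts stood above the background. In DESeq2 3 had an unadjusted p under 0.05 (LRRC8D, INSIG1 and LRRFIP1), against 3.21% of all genes. INSIG1, best known as a brake on sterol synthesis, was the 1 gene in edgeR. Its CPM was 38.4, 38.9 and 36.7 in CAD-KO2+IR and 49.4, 49.6 and 75.7 in sgVec+IR (log2 fold change −0.62, SE 0.219, unadjusted p = 0.0263, adjusted p = 1.0 in edgeR and 0.999 in DESeq2). Each CAD-KO2+IR library was below each control, and the log2 fold change was negative in all 17 alternatives, from −0.72 to −0.38, the latter without sgVec+IR replicate 3. The other non-overlapping genes were LRRC8D, a subunit of volume-regulated anion channels (0.48, SE 0.210), RNF5, a ubiquitin ligase of STING (−0.41, SE 0.212), and LRRFIP1, a nucleic acid sensor (0.31, SE 0.151), each with an adjusted p of 1.0 in edgeR.

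By role, the nucleases and other hydrolases that limit the ligand had 5 of 7 genes tested, from DNASE2 at −0.13 to SAMHD1 at 0.14 in log2 fold change. TREX1, the main cytosolic DNA exonuclease, had 0 counts in all 6 libraries, but its exons lie wholly within those of ATRIP on the same strand, and how the counting treated such shared bases is not given in the sources used here. The 6 genes of cGAMP transport and breakdown ran from ABCC1 at −0.10 to SMPDL3A at 1.16. SMPDL3A, which degrades cGAMP, had 48, 79 and 81 counts in CAD-KO2+IR and 38, 39 and 0 in sgVec+IR, so that its fold change rests largely on the 0 in sgVec+IR replicate 3, and it was 0.53 without that library and CAD-KO2+IR replicate 2. The 12 regulators of cGAS ran from RNF185 at −0.14 to PQBP1 at 0.62, which had 58 counts in sgVec+IR replicate 3 against 477 to 846 elsewhere and was at 0.12 without that library. The 20 genes of STING trafficking and turnover ran from INSIG1 to ZDHHC1 at 0.26, with 10 higher and 10 lower. ZDHHC1 had 11 counts in sgVec+IR replicate 3 against 137 to 159 elsewhere, and its log2 fold change was −0.25 without that library. The 5 adaptors of TBK1 ran from TANK at −0.32 to AZI2 at 0.31. Of 8 other DNA sensors 5 were tested, from MRE11 at −0.20 to LRRFIP1 at 0.31, while AIM2 had 0 counts in every library, ZBP1 at most 1 and IFI16 at most 2. When sgVec+IR replicate 3 was left out, DNASE2 was at −0.46, ABCC1 at −0.26, RNF185 at −0.04, TANK at −0.05, AZI2 at 0.15 and MRE11 at 0.13, so these ends of the ranges also depended on that library.

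At the far end of the pathway, the 6 cytokine genes that the study read by qPCR were near or below the depth of these libraries. IFNB1, the gene for interferon β, had 1, 0 and 0 counts in CAD-KO2+IR and 0, 1 and 0 in sgVec+IR. TNF had 0 counts in all 6 libraries, which allows up to 0.0540 CPM in the knockout and 0.0670 CPM in the control over a group's summed counts. IL6 had 0, 3 and 0 counts in CAD-KO2+IR and 0 in each control. A difference in these 3 genes was not detectable at this depth. CXCL10, an interferon-inducible chemokine, had 0, 3 and 0 counts in CAD-KO2+IR and 0, 6 and 30 in sgVec+IR, and CCL5 had 12, 1 and 7 counts against 9, 9 and 0. The 30 counts of CXCL10 came from the same library as the 35 of CGAS. CXCL8 alone of the 6 passed the filter, with 18, 17 and 9 counts against 6, 9 and 0 (log2 fold change 1.25, SE 0.850, adjusted p = 1.0 in edgeR). The log2 fold change of CXCL8 was 0.71 without sgVec+IR replicate 3 and 0.34 with sample weights.

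Genes whose level followed that of STING1 most closely were sought among all genes tested, by Pearson's r of log2 CPM over the 6 libraries. They were FBXW9 (0.991), ORAI2 (0.989), AQP3 (0.988), SLC7A8 (0.985) and ATP5F1B (0.983). The 6 points include both libraries that stood apart, so these values are a description with no test. Within the core, BANF1 and TRIM56 were the most alike (r = 0.986), and TBK1 ran against both BANF1 (−0.94) and IRF3 (−0.93).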

How the data were processed

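RNA-seq of 6 HCT116 libraries was analysed. The authors cleaned the reads, counted them per gene with featureCounts and deposited raw counts, 1 column a library, each matched to its sample by title, with 0 columns left unmatched. The labels list the mouse build mm10 although the gene identifiers are human, and list the molecule as genomic DNA although the protocol describes RNA. The aligner, annotation and strand setting are not given in the sources used here. Dose, time and guide come from the paper, not the labels. The study used DESeq2, which was run as an alternative. At the same thresholds DESeq2 called fewer genes here than the paper reports, and the reason was not found.

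Genes were kept by filterByExpr (minimum count 10, minimum total count 15). The tools were R 4.3.3, edgeR 4.0.16 (quasi-likelihood test, legacy set to FALSE, TMM, Benjamini-Hochberg adjustment over 12925 genes), DESeq2 1.42.0 and limma 3.58.1. TPM, GC content and positions used GENCODE release 29 on GRCh38, which 19823 of 20020 identifiers matched with the version ignored. The GC offset was a lowess trend (span 0.3) for each library, and log2 CPM used a prior count of 2. Limits for a count of 0 are 3 counts of the summed total. Intervals and limits cover counting error only. In simulated counts with 200 changed genes (12671 tested), edgeR recovered 62 of 100 genes changed by 2 on the log2 scale and 8 of 100 changed by 1, with 8 false calls. DESeq2 recovered 74 and 30, with 53 false calls. The simulated counts held no trend with GC content, unlike the real libraries.

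The members and lists were chosen with earlier results of these data known. Genes named were the members, the targeted gene, the cytokine genes, the 5 genes most like STING1, and of the wider list those called, those with an unadjusted p under 0.05 and groups that do not overlap, and the highest and lowest of each role. RNF5, LRRC8D, CDH1, KRT18, COL1A1, VIL1 and VWF, and the genes without counts, were named after their values were seen. The sources used here do not say whether replicate numbers pair the libraries. Correlations of same-numbered deviations were 0.47, −0.54 and −0.38. They cannot decide it, since 1 library of each group stood apart.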

Additional observations from a re-analysis of the deposited data

How the results depend on the processing

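Of 12925 genes, 4 were called in edgeR, against 47 in DESeq2, 0 in limma-voom (302 with an unadjusted p under 0.05), 666 with sample weights, 42 with the GC offset, 282 with an unadjusted p in place of the adjusted one, 440 without CAD-KO2+IR replicate 2 and sgVec+IR replicate 3 (chosen after seeing the data), 0 with the replicate block, and 0 to 22 with 1 library left out. The replicate block changed no other call. Of the members 0 were called, against 2 with sample weights (STING1, IRF7) and 1 without both libraries (STING1), and of the wider list 1 (INSIG1) with an unadjusted p. Members higher in CAD-KO2+IR numbered 4, and 1 to 6 with 1 library left out (1 without CAD-KO2+IR replicate 1). The place of each gene in the TPM order was kept for at least 6 of the 10 with 1 library left out. The median log2 fold change of the members ran from −0.24 to 0.06 over such fits. Library size in place of TMM was not run for TPM, which carries no TMM factor. The cause of these changes was not tested.

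With 1 library left out, the log2 fold change kept its sign for STING1 (−0.72 to −0.36) and not for the other 8 members tested. BANF1 ran from −0.24 to 0.31, TRIM56 from −0.13 to 0.28, IKBKE from −0.28 to 0.19, IRF3 from −0.31 to 0.18 and IRF7 from −0.44 to 0.41, each lowest without sgVec+IR replicate 3. ENPP1 ran from −0.61 to 0.15 and TBK1 from −0.17 to 0.48, each highest without that library, and TRAF3 from −0.11 to 0.051, highest without CAD-KO2+IR replicate 2. With sample weights the sign turned for BANF1 (−0.094), TRIM56 (−0.060), ENPP1 (0.014), TRAF3 (0.088) and IRF7 (−0.64), and without both libraries for BANF1 (−0.052), ENPP1 (0.011), TRAF3 (0.094) and IRF7 (−0.39). IKBKE turned in limma-voom (0.030), with the GC offset (0.0084), the replicate block (0.0050) and both (0.0051), and IRF7 with library size only (−0.0092). The other 120 values of the members' fold changes kept their sign and were not called; among them TBK1 passed the adjusted p threshold but not the fold change of 1.5 with sample weights and without both libraries. The wider list had 30 genes higher and 23 lower, 24 and 29 without sgVec+IR replicate 3, and 30 and 23 without both libraries.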
